A study of Homo sapiens with 6 samples.

Results

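A set of 10 genes was followed here from the gene count table of HEK293 cells, chosen by name: the PAPS transporters SLC35B2 and SLC35B3, the PAPS synthases PAPSS1 and PAPSS2, and the enzymes of heparan sulfate synthesis B4GALT7, EXT1, EXT2, NDST1, HS2ST1 and HS6ST1. They are 10 of the 57773 genes in the table, and all 10 passed the filter on low counts that left 22010 genes. SLC35B2 stands in the list of genes that the study found changed by guides against ZNF507, so its values in the sgZNF507 libraries are given as a description without a test. HEK293 is an established line from human embryonic kidney. Its cells were transiently transfected with plasmids that carry Cas9 and either no guide (EV) or 4 guides against ZNF146 (sgZNF146) or ZNF507 (sgZNF507), both zinc finger proteins. Every group was selected with puromycin for 36 hours and grown for 2 weeks, and RNA was read from 2 libraries per group. The cells are mixed populations and not clones, so that edited and unedited cells can contribute to each library.

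PAPS is the activated sulfate that all sulfotransferases use as their donor. It is made in the cytosol by PAPSS1 and PAPSS2, each of which joins sulfate to ATP and then phosphorylates the product, and SLC35B2 and SLC35B3 carry it across the Golgi membrane. In the Golgi, heparan sulfate chains grow on a short sugar linker attached to a core protein. B4GALT7 adds the linker's first galactose, EXT1 and EXT2 together build the chain, NDST1 replaces acetyl by sulfate on glucosamine, and HS2ST1 and HS6ST1 add sulfate to other positions.

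The 6 libraries held 22724439 to 28524025 counts. The ZNF507 count fell in the sgZNF507 libraries, from 72.0 and 75.5 CPM in EV to 47.2 and 48.7 CPM, a log2 fold change of -0.62 (SE 0.07, adjusted p = 0.00195, edgeR). CPM are counts per 1000000 counts of the TMM-adjusted library size. ZNF146 stood at 115 and 105 CPM in EV and at 99.2 and 103 CPM in sgZNF146, a log2 difference of -0.13 (SE 0.08, adjusted p = 1.00, edgeR), so that its RNA level does not check the sgZNF146 label. In sgZNF507, ZNF146 stood at 88.4 and 101 CPM, a log2 difference from EV of -0.21 (SE 0.08, adjusted p = 0.9996, edgeR). The study's own checks of disruption, by western blot and by indels in the reads, were not analysed here. Of 8 kidney and HEK293 markers with a row, 6 had a mean of at least 1 CPM, among them NEFM, SIX2, WT1 and PAX2. PAX8 and CDH16 were near 0. Replicates differed by more than counting error (chi-square per degree of freedom 6.38 in EV, 9.60 in sgZNF146 and 9.34 in sgZNF507). The labels only number the 2 libraries of a group as replicates. The paper describes them as biological duplicates, with both the disruption and the sequencing done in duplicate. The p-values measure the spread between such libraries.

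Both transporter genes lie on the minus strand of chromosome 6, SLC35B2 (ENSG00000157593) at chr6:44221833-44225627 and SLC35B3 (ENSG00000124786) at chr6:8411668-8435794 of GRCh37. The sequences before their starts are shown because 1 of the transporter genes is on the study's list of changed genes and the other is not. The start of SLC35B2 intron 1 is shown because it holds the letters CACGTG, an E-box, as part of CACGTGAC at 2 places, which are in capitals. Starts are those of the canonical transcripts. That of SLC35B2 is base 44225265, inside the annotated extent of the gene, since other transcripts begin upstream of it. Sequences are written 5′ to 3′ on the minus strand.
SLC35B2, the 250 bases before the start (chr6:44225266-44225515): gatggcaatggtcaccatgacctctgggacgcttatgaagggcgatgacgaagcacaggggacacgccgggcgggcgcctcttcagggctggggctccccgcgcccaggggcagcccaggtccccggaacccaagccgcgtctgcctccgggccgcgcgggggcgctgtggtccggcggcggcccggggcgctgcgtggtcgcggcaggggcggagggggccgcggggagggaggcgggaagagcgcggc
SLC35B3, the 250 bases before the start (chr6:8435779-8436028): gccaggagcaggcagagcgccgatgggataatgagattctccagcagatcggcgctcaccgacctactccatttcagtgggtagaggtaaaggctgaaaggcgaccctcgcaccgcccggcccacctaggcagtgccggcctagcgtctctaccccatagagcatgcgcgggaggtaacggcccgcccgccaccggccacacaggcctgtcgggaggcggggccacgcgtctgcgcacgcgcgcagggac
SLC35B2, the first 120 bases of intron 1 (chr6:44225017-44225136): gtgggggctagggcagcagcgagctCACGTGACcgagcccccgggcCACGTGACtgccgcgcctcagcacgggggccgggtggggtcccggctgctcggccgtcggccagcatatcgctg

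The 2 copies begin at bases 155 and 176, counted with the canonical SLC35B2 transcript start as base 1, inside intron 1 (chr6:44224616-44225136). The letters were searched on both strands after the sequence had been seen, and each CACGTGAC contains a CACGTG. From 250 bases before to 50 bases after the start, neither was found in any of the 10 genes. Within 500 bases on either side of the start, SLC35B2 was the only 1 of the 10 that held them. Among 19123 protein-coding genes, 18.4% held CACGTG in that wider window, 4.69% held CACGTGAC, and 1.06% held 2 or more CACGTGAC. A match of letters is a description of the sequence and not of a bound site.

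SLC35B2, which carries PAPS into the Golgi, was higher in both sgZNF507 libraries than in any other library. It stood at 64.3 and 74.0 CPM in EV, at 66.3 and 67.8 CPM in sgZNF146, and at 95.7 and 98.4 CPM in sgZNF507. The raw counts behind the sgZNF507 values were 2204 and 2849, against 1601 to 2045 in the other 4 libraries. The group means were 69.1 ± 6.83 CPM in EV, 67.0 ± 1.08 CPM in sgZNF146 and 97.0 ± 1.91 CPM in sgZNF507 (SD, n = 2 each). The gap between the 2 EV libraries was wider than that within either of the guide groups. sgZNF507 exceeded EV by 0.49 on the log2 scale (SE 0.08), which is 1.40-fold, and exceeded sgZNF146 by 0.53 (SE 0.08), which is 1.45-fold. Both figures rest on the same sgZNF507 libraries, and the first is the contrast that put the gene on the study's list. Leaving out EV replicate 1 lowered the difference from EV to 0.39. sgZNF146 and EV overlapped, with a log2 difference of -0.05 (SE 0.08, 95% interval -0.21 to 0.12, adjusted p = 1.00, edgeR).

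Fibroblast collagen COL1A1 was also higher in the sgZNF507 libraries, at 73.0 and 66.7 CPM against 58.9 to 63.4 CPM in the other libraries, a log2 difference from EV of 0.18 (SE 0.08, adjusted p = 1.00, edgeR). It was the only 1 of 10 markers of other cell types with a row whose mean over the 6 libraries reached 1 CPM. Their summed level ran from 62.6 to 65.1 CPM in EV, from 61.9 to 65.6 CPM in sgZNF146 and from 69.7 to 75.0 CPM in sgZNF507, and KRT5 was at 0 in every library. The other fibroblast markers did not follow COL1A1, with COL1A2 at 0.396 ± 0.105 CPM in EV and 0.298 ± 0.115 CPM in sgZNF507, and DCN at 0.842 ± 0.116 and 0.900 ± 0.0454 CPM (SD, n = 2 each), so that the summed level is nearly all COL1A1. The part of these markers in the SLC35B2 values was not tested. In a bulk library, a gene's change in each cell and a change in how many cells express it cannot be told apart. The microRNA gene MIR4647 lies in an exon of SLC35B2 on the same strand and had 0 counts in all 6 libraries. How reads that overlap 2 genes were counted is not given in the sources used here. The 0 counts therefore do not show that MIR4647 is silent.

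SLC35B3, the second PAPS transporter, was the least abundant of the 10 genes. Its 2 libraries of each group read 8.92 and 9.98 CPM in EV, 9.77 and 10.5 CPM in sgZNF146, and 8.51 and 11.1 CPM in sgZNF507. The 2 sgZNF507 libraries were its lowest and its highest, so the groups overlapped. Its log2 difference between sgZNF507 and EV was 0.06 (SE 0.15), with a 95% interval of -0.26 to 0.38, the widest of the 10. With 196 to 321 counts per library, SLC35B3 was measured less precisely than SLC35B2. The ratio of SLC35B2 to SLC35B3 counts was 7.21 and 7.41 in EV, 6.78 and 6.44 in sgZNF146, and 11.2 and 8.88 in sgZNF507. Both sgZNF507 ratios lay above the other 4, and the distance between them came from SLC35B3.

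**Figure D1:**
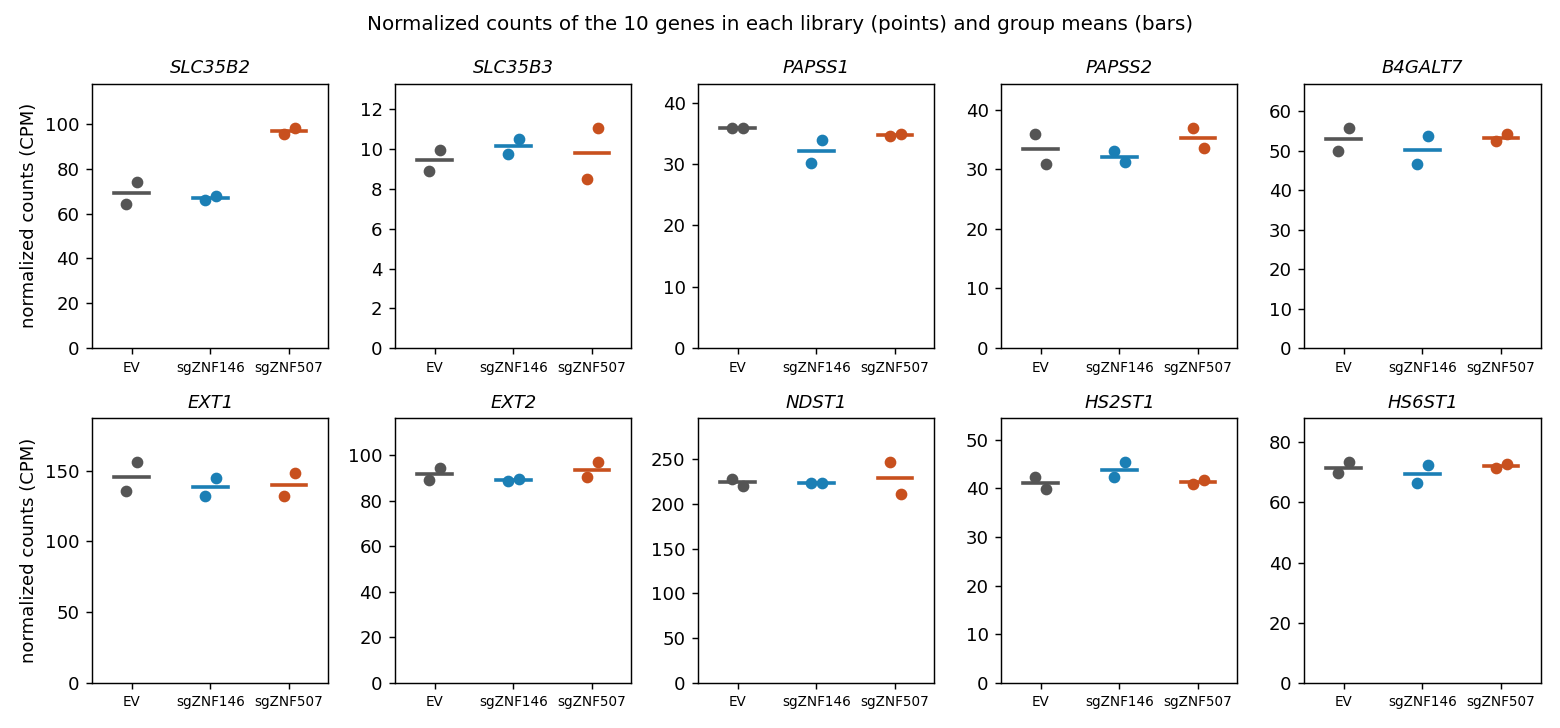
Normalized counts (CPM, linear axis from 0, a separate scale for each gene) of the 10 genes in EV, sgZNF146 and sgZNF507. Points are the 2 libraries of a group and bars are their mean. SLC35B2 reads 95.7 and 98.4 CPM in sgZNF507, above 64.3 to 74.0 CPM in the other libraries. Of the other 9 genes, 8 overlap between sgZNF507 and EV, where 29.3% of all tested genes do not overlap.

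The 2 PAPS synthases gave similar counts from transcripts of unequal length. PAPSS1 (ENSG00000138801, chr4:108511433-108641390, minus strand) stood at 35.9 and 36.0 CPM in EV, 30.3 and 33.9 CPM in sgZNF146, and 34.6 and 34.9 CPM in sgZNF507. Both guide groups were below EV without overlap. The log2 difference from EV was -0.16 (SE 0.09, 95% interval -0.35 to 0.02, unadjusted p = 0.0835, edgeR) for sgZNF146 and -0.05 (SE 0.09, interval -0.24 to 0.14) for sgZNF507, and neither passed the threshold after adjustment. PAPSS2 (ENSG00000198682, chr10:89419370-89507462, plus strand) stood at 36.0 and 30.9 CPM in EV, 33.1 and 31.2 CPM in sgZNF146, and 36.97 and 33.5 CPM in sgZNF507, with overlap between EV and either guide group. Its log2 difference between sgZNF507 and EV was 0.07 (SE 0.10, 95% interval -0.14 to 0.28). The ratio of PAPSS1 to PAPSS2 counts was 0.998 and 1.16 in EV, 0.915 and 1.09 in sgZNF146, and 0.935 and 1.04 in sgZNF507. Per kb of canonical transcript, PAPSS1 was higher than PAPSS2 in every library, at 12.04 to 14.31 CPM per kb against 8.361 to 9.996 CPM per kb.

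B4GALT7, the galactosyltransferase of the linker (ENSG00000027847, chr5:177027133-177037331, plus strand), stood at 50.0 and 55.9 CPM in EV, 46.7 and 53.9 CPM in sgZNF146, and 52.4 and 54.3 CPM in sgZNF507. The groups overlapped in every comparison, and the log2 difference between sgZNF507 and EV was 0.01 (SE 0.09, 95% interval -0.18 to 0.20). EXT1 and EXT2 act as a complex that adds glucuronic acid and N-acetylglucosamine in turn. EXT1 (ENSG00000182197, on chromosome 8) stood at 136 and 156 CPM in EV, 132 and 145 CPM in sgZNF146, and 132 and 148 CPM in sgZNF507, a log2 difference between sgZNF507 and EV of -0.06 (SE 0.08, interval -0.23 to 0.12). EXT2 (ENSG00000151348, chr11:44117198-44273512, plus strand) stood at 89.0 and 94.3 CPM in EV, 88.6 and 89.5 CPM in sgZNF146, and 90.1 and 96.7 CPM in sgZNF507, a log2 difference between sgZNF507 and EV of 0.03 (SE 0.07, interval -0.12 to 0.17). EXT1 counts exceeded EXT2 counts in every library, with a ratio from 1.47 in sgZNF507 replicate 1 to 1.65 in EV replicate 2. The EXT1 transcript is the shorter of the pair.

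Among the sulfotransferases, NDST1 had the most counts of the 10 genes. NDST1 (ENSG00000070614, chr5:149865381-149937773, plus strand) read 228 and 221 CPM in EV, 224 and 224 CPM in sgZNF146, and 246 and 211 CPM in sgZNF507. The 2 sgZNF507 libraries again held both extremes, and the log2 difference from EV was 0.03 (SE 0.07, 95% interval -0.13 to 0.19). HS2ST1, which sulfates the uronic acid (ENSG00000153936, chr1:87380318-87575665, plus strand), stood at 42.3 and 40.0 CPM in EV, 42.3 and 45.4 CPM in sgZNF146, and 40.9 and 41.7 CPM in sgZNF507. Its sgZNF507 values lay inside the EV range, and below both sgZNF146 values by a log2 difference of -0.09 (SE 0.08, interval -0.26 to 0.09). HS6ST1, which sulfates glucosamine (ENSG00000136720, chr2:128994290-129076442, minus strand), stood at 69.8 and 73.3 CPM in EV, 66.6 and 72.6 CPM in sgZNF146, and 71.4 and 72.6 CPM in sgZNF507, with a log2 difference between sgZNF507 and EV of 0.01 (SE 0.07, interval -0.14 to 0.16). Besides MIR4647, exons of other genes in the count table overlap exons of 3 of the 10. A gene of 2 to 11 counts per library shares HS2ST1's strand, and antisense genes overlap PAPSS2 and NDST1. The libraries were strand-specific, but the strand setting of the counting is not given in the sources used here, so reads of these antisense pairs may not be separated.

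In sgZNF507 against EV, 1 of the 10 genes passed the adjusted threshold of 0.05, SLC35B2, where 0.182% of all tested genes did (0.114% higher and 0.0682% lower). That contrast chose the gene, so nothing is read from this count. The other 9 genes differed by -0.06 to 0.07 on the log2 scale, with a median of 0.01 beside -0.003 over all tested genes. None passed the threshold or had an unadjusted p under 0.05 by edgeR, and DESeq2 on 6 or 4 libraries also called 0 of the 9. Their 95% intervals reached from -0.26 to 0.38 at the widest. The groups did not overlap for 2 of the 10 genes, SLC35B2 higher and PAPSS1 lower, where 29.3% of all tested genes did not overlap (14.0% higher and 15.3% lower).

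In sgZNF146 against EV, which uses the same EV libraries, 0 of the 10 genes passed, as did 0.0% of all tested genes. No member had an unadjusted p under 0.05 by edgeR, and DESeq2 called 0 on 6 or 4 libraries. Over all tested genes, edgeR gave 535 with an unadjusted p under 0.05. The 9 genes besides SLC35B2 ranged from -0.16 to 0.10 in log2 difference, and 95% intervals reached from -0.35 to 0.42. PAPSS1 was the only gene without overlap, where 28.6% of tested genes had none (14.0% higher and 14.6% lower). In sgZNF507 against sgZNF146, 1 of the 10 passed, again SLC35B2, where 0.173% of tested genes did (0.104% higher and 0.0682% lower). The comparison reuses the sgZNF507 libraries on which the gene was chosen, so nothing is read from this count either. The other 9 ranged from -0.09 to 0.13, with intervals from -0.36 to 0.34. Groups did not overlap for 5 of the 10 (SLC35B2, PAPSS1, PAPSS2 and EXT2 higher, HS2ST1 lower), where 32.1% of tested genes did not overlap (15.5% higher and 16.5% lower).

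**Figure D2:**
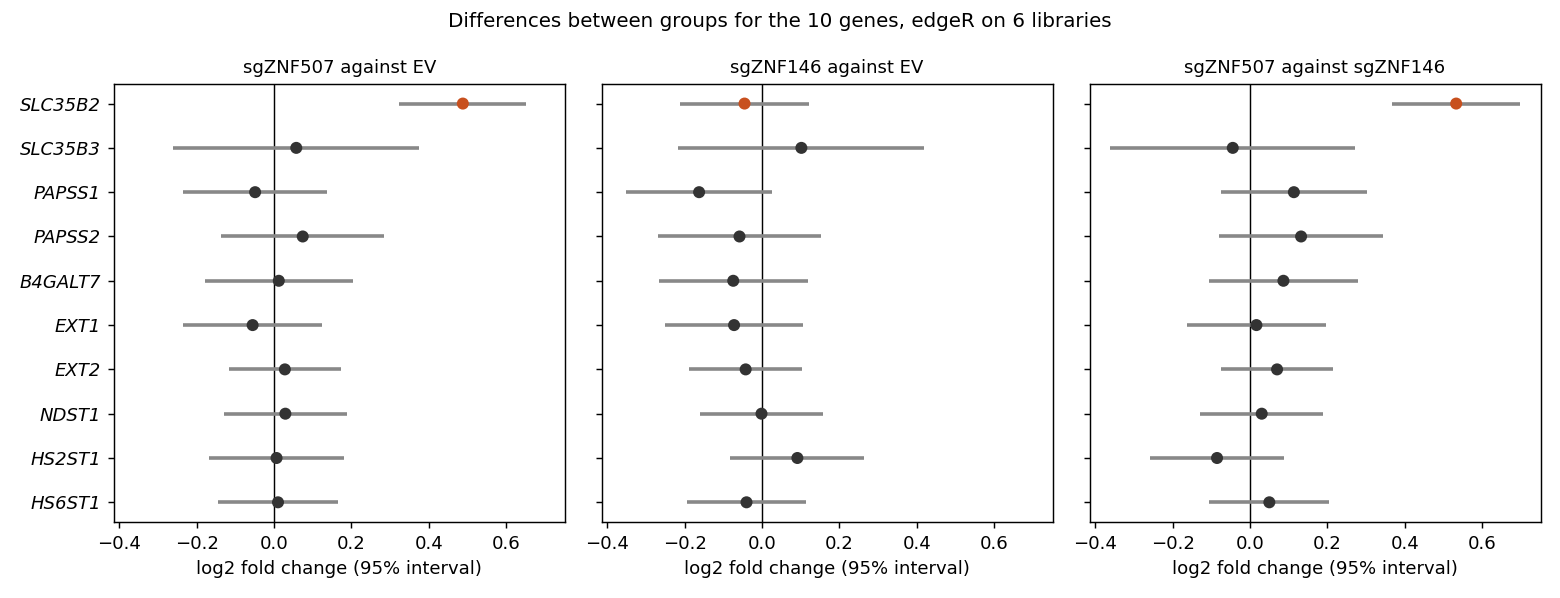
Log2 fold changes (points) with 95% intervals (lines) of the 10 genes in the 3 comparisons, from edgeR on 6 libraries, with SLC35B2 in orange. SLC35B2 lies at 0.49 and 0.53 in the comparisons that involve sgZNF507 and at -0.05 in sgZNF146 against EV. The gene was chosen on the sgZNF507 libraries, so nothing is read from its intervals in the comparisons that involve them. The intervals of the other 9 genes all include 0.

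Levels can be compared between genes only per length, here as CPM per kb of the canonical transcript in EV. SLC35B2 led with 34.2 ± 3.38 CPM per kb (SD, n = 2), followed by B4GALT7 at 31.2 and NDST1 at 28.0. EXT1 at 17.7, HS6ST1 at 16.9 and PAPSS1 at 14.3 CPM per kb came next, before EXT2 at 9.13, PAPSS2 at 9.05, HS2ST1 at 6.09 and SLC35B3 at 2.65. The ranges of the 2 EV libraries overlapped between neighbours in this order for SLC35B2 and B4GALT7, for EXT1 and HS6ST1, and for EXT2 and PAPSS2. In sgZNF507, SLC35B2 stood at 48.0 ± 0.946 CPM per kb. With all annotated exons as the length, SLC35B2 remained at rank 1 and SLC35B3 at rank 10, and B4GALT7 moved from rank 2 to rank 6.

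**Figure D3:**
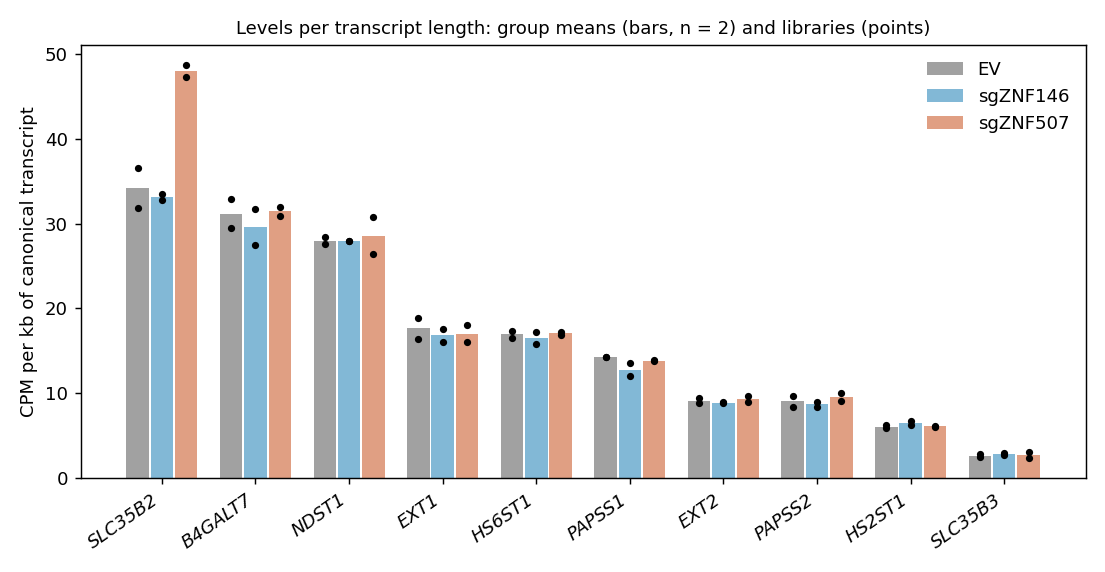
Levels per length (CPM per kb of the canonical transcript, linear axis from 0) of the 10 genes, in order of their EV level. Bars are means of 2 libraries and points the libraries. SLC35B2 in sgZNF507 reaches 48.0 CPM per kb from 34.2 in EV, and SLC35B3 is lowest at 2.65 in EV.

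The other 9 genes together gave 706 ± 15.3 CPM in EV, 690 ± 22.9 CPM in sgZNF146 and 709 ± 6.49 CPM in sgZNF507 (SD, n = 2 each). SLC35B2 made up 8.47% and 9.36% of the summed CPM of the 10 genes in EV, 8.96% and 8.76% in sgZNF146, and 11.8% and 12.3% in sgZNF507. The sums of the 9 overlapped between sgZNF507 and EV, and the shares of SLC35B2 did not. Those shares restate the SLC35B2 values on which the gene was chosen, so nothing is read from them.

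The neighbouring steps of the pathway were described with 8 further gene lists, of which 93 of 102 genes were tested. In sgZNF507 against EV, 1 of the 93 was called, SUMF1, where 0.182% of all tested genes were, with a median log2 difference of 0.03 over the 93 beside -0.003 over all tested genes. An unadjusted p under 0.05 was found for 3 of the 93 (SUMF1, COL18A1 and SULT1A1), where 3.39% of all tested genes had one, and DESeq2 on 6 or 4 libraries called SUMF1 alone. In sgZNF146 against EV, 0 of the 93 were called by edgeR and by DESeq2 on 6 or 4 libraries, and 5 had an unadjusted p under 0.05 (SLC26A6, HS3ST6, COL18A1, CHST3 and GAL3ST2) where 2.43% of tested genes did. In sgZNF507 against sgZNF146, edgeR called 0, with 4 at an unadjusted p under 0.05 (SUMF1, GPC6, CHPF2 and CSGALNACT2) where 4.03% did, and DESeq2 on 6 libraries called SUMF1.

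SUMF1, the enzyme that activates sulfatases by converting a cysteine of their active site, stood at 8.36 and 8.97 CPM in EV, 8.83 and 10.4 CPM in sgZNF146, and 15.1 and 15.7 CPM in sgZNF507. Both sgZNF507 libraries were above all others, and the log2 fold change from EV was 0.83 (SE 0.12, adjusted p = 0.0181, edgeR). SUMF1 is also on the study's list of changed genes, so this is no independent evidence of its direction. Leaving out either EV library ended the call. None of the other 9 tested genes of lysosomal heparan sulfate breakdown was called, and the list's median was 0.08. Of its more abundant genes, the glucuronidase GUSB differed from EV by -0.04 (SE 0.08) and the sulfamidase SGSH by 0.08 (SE 0.10).

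For sulfate uptake and PAPS supply, 0 of 7 tested genes were called in sgZNF507 against EV, and the median log2 difference was -0.04. IMPAD1, which clears the nucleotide left in the Golgi after sulfate transfer, differed by -0.11 (SE 0.09), and SLC26A2, a sulfate transporter of the cell surface, by 0.01 (SE 0.08). SLC26A1 had the lowest value at -0.75 (SE 0.48), from 0.260 to 0.763 CPM across the EV and sgZNF507 libraries. For the linker and its sugar nucleotides, 0 of 10 were called, with a median of 0.01. The xylosyltransferase XYLT2 differed by 0.07 (SE 0.07), the galactosyltransferase B3GALT6 by 0.05 (SE 0.07), and the xylose kinase FAM20B by 0.01 (SE 0.07).

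For building and modifying heparan sulfate chains, 0 of 15 further genes were called, with a median of 0.03. EXTL3, which starts the chain, differed by 0.04 (SE 0.07), HS6ST2 by -0.06 (SE 0.08), and SULF2, which removes sulfate outside the cell, by 0.00 (SE 0.08). HS3ST6 had the highest value at 1.00 (SE 0.58), with no library above 0.828 CPM. Core proteins that carry the chains gave 0 of 13 and a median of 0.06, with agrin (AGRN) at 0.03 (SE 0.06), collagen XVIII (COL18A1) at 0.17 (SE 0.07) and the syndecan SDC3 at 0.15 (SE 0.09). Chondroitin and dermatan sulfate synthesis, which shares the linker and the PAPS pool, gave 0 of 16 and a median of 0.05, with CHPF2 at 0.04 (SE 0.08), CHSY1 at -0.02 (SE 0.07) and DSE at 0.03 (SE 0.08). With 0.182% of all tested genes called, counts of 0 in lists of this size do not set them apart from other genes.

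Other Golgi enzymes that use PAPS gave 0 of 13 called and a median of 0.06, among them the tyrosine sulfotransferases TPST1 at 0.06 (SE 0.12) and TPST2 at 0.04 (SE 0.10), and the carbohydrate sulfotransferase CHST10 at -0.06 (SE 0.08). Cytosolic sulfotransferases, which use PAPS that has not been transported, gave 0 of 9 and a median of -0.02. SULT1A1, which acts on phenols, had the highest value of these at 0.33 (SE 0.13), SULT1B1 differed by -0.02 (SE 0.12) and SULT4A1 by 0.00 (SE 0.12).

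**Figure D4:**
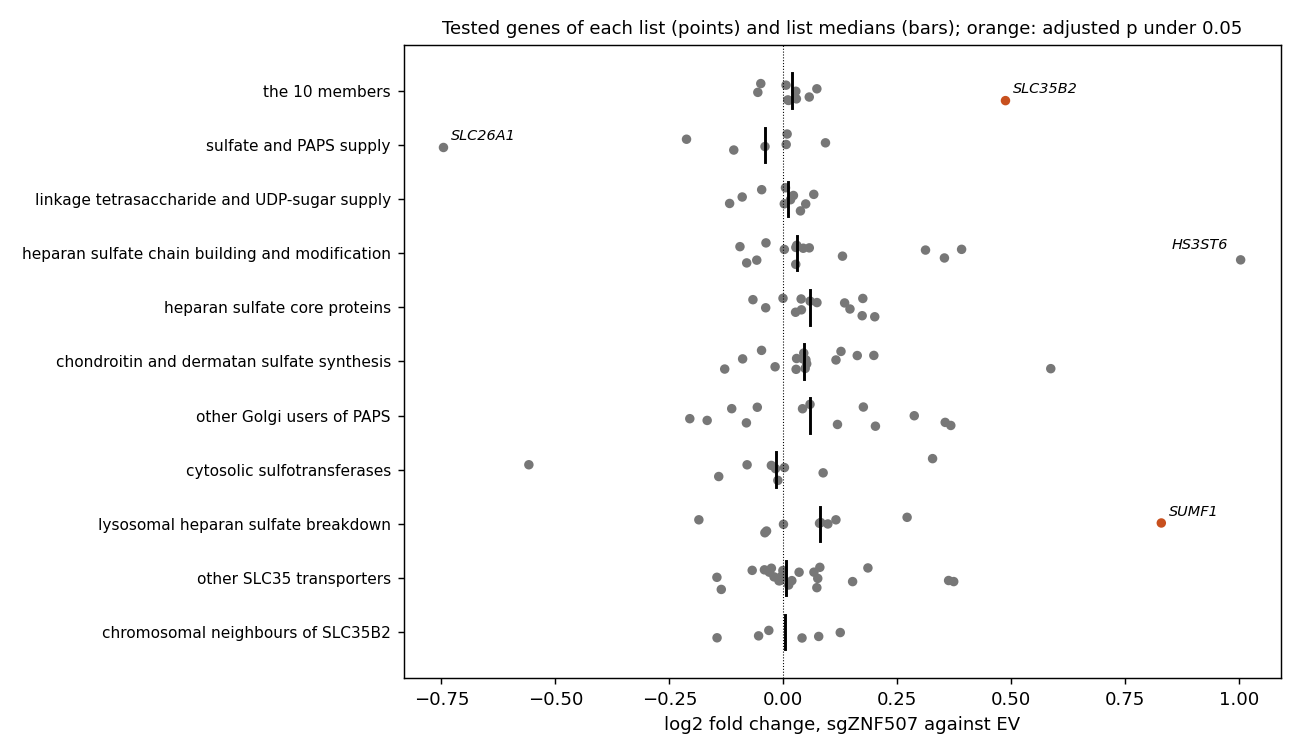
Log2 fold change in sgZNF507 against EV (horizontal axis) of the tested genes in each list (points), with list medians (bars), and genes with an adjusted p under 0.05 in orange. SLC35B2 at 0.49 and SUMF1 at 0.83 are the only orange points, both on the study's list of changed genes, and SLC26A1 at -0.75 and HS3ST6 at 1.00 are the extremes.

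Relatives and neighbours of SLC35B2 were described in the same way, beside the same share of 0.182% called. The SLC35 family includes carriers of nucleotide sugars. Of its 22 other members tested, 0 were called by edgeR or DESeq2 in sgZNF507 against EV. Among these 22, 0 had an unadjusted p under 0.05 by edgeR, and the median log2 difference was 0.01. On chromosome 6, the chaperone gene HSP90AB1 ends 207 bases from SLC35B2 on the opposite strand and differed by 0.04 (SE 0.06). NFKBIE, which encodes an inhibitor of NF-kappaB, lies on the same strand, 275 bases beyond the upstream end of the whole annotated gene, and differed by 0.13. SLC29A1 at -0.05, TMEM151B at -0.15, TCTE1 at -0.03 and AARS2 at 0.08 were also not called by edgeR or DESeq2, none of the 6 had an unadjusted p under 0.05 by edgeR, and their median was 0.00.

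The genes whose pattern was most like that of SLC35B2 were found by Pearson's r of log2 CPM over the 6 libraries, among 10083 protein-coding genes with a mean of at least 10 CPM. They were SLC38A7, a lysosomal amino acid transporter (r = 0.999), NAGPA, which uncovers the mannose 6-phosphate tag of lysosomal enzymes (0.993), ATG14, a subunit of an autophagy lipid kinase (0.990), TRMT1, a tRNA methyltransferase (0.986), and CLCN7, a lysosomal chloride transporter (0.984). SLC38A7, NAGPA and CLCN7 are, like SLC35B2, on the study's list of changed genes. These values describe 6 libraries that fall into 3 groups, and all genes share the depth of each library. They include the sgZNF507 libraries on which SLC35B2 was chosen, so genes that were also higher there rank high. Which genes came out is therefore a description, and nothing is read from it. SLC38A7 stood at 41.2 and 47.7 CPM in EV, 42.6 and 44.6 CPM in sgZNF146, and 66.8 and 68.5 CPM in sgZNF507. As for SLC35B2, EV replicate 1 was its lowest library. None of the pathway's own genes was among the 5, and r with SLC35B2 ran from -0.43 for HS2ST1 to 0.64 for EXT2 over the 8 other genes of the 10 that reached 10 CPM.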

How the data were processed

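RNA of 6 HEK293 libraries was sequenced after ribosomal RNA depletion as strand-specific, paired-end reads. The authors clipped reads with the Fastx Toolkit, removed ribosomal reads with Bowtie, mapped with TopHat2 to hg19 and counted reads per Ensembl gene with featureCounts; TopHat2 and featureCounts also stand in the submitters' processing notes. The deposited values are raw counts per gene, with no normalization or pooling. PCR duplicates were not removed by molecular identifiers, so precision from counts covers counting error only.

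Groups and replicate numbers came from the labels, and every count column matched 1 sample. The test was edgeR's quasi-likelihood test (edgeR 4.0.16, R 4.3.3; filterByExpr with a minimum count of 10, TMM, glmQLFit and glmQLFTest, all 6 libraries in 1 fit with the group as the only term), and p-values were adjusted across the 22010 tested genes by Benjamini-Hochberg, with calls made below 0.05. Standard errors were computed from the F statistic and intervals are at 95%. The steps were tested on simulated data. Symbols, lengths, positions and sequences came from the GENCODE annotation and GRCh37, with 96.1% of gene IDs matched. CPM were divided by the canonical transcript length for levels per kb. Summaries and plots used Python 3.11.15 with matplotlib 3.10.9.

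The 10 genes and all gene lists were chosen with earlier results of these data known. Named genes were the 10, the 2 targeted genes, from each list the called genes and, for pathway lists, up to 3 of the highest mean CPM, the neighbours of SLC35B2 and the 5 genes most like SLC35B2 in pattern. Genes at the ends of a list's range, genes with an unadjusted p under 0.05, marker genes, overlapping genes and the genes named for letters in their sequence were added after their values were seen. The alternatives tried were upper-quartile scaling or the size factors of DESeq2 in place of TMM, other filters, DESeq2 1.42.0 on 6 or 4 libraries, edgeR on 4 libraries, the replicate number as a block, Bonferroni adjustment and leaving out each library in turn. Markers without a matched row, protein sequences and LINE-1 elements were not analysed here.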

Additional observations from a re-analysis of the deposited data

Results flagged for a closer look

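SLC35B2 was singled out because its effect differed between the guide groups under the same contrast to EV. The sgZNF507 effect exceeded the sgZNF146 effect by 0.53 on the log2 scale (SE 0.08, edgeR), with values of 0.49 against EV for sgZNF507 and -0.05 for sgZNF146. Both sgZNF507 libraries were above both sgZNF146 libraries. The gene was chosen on the sgZNF507 libraries, so the difference is a description and no p is given.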

How the results depend on the processing

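With 2 libraries per group, the calls of SLC35B2 depend on single libraries. Its direction held under 14 alternatives to the reported fit in both comparisons that involve sgZNF507. These alternatives reuse the sgZNF507 libraries on which the gene was chosen, so they are no independent evidence of its direction. In sgZNF507 against EV, the count of called genes among the 10 was 1 and became 0 with edgeR on 4 libraries (log2 fold change 0.49) and with Bonferroni adjustment. Leaving out single libraries gave 0 to 1, and the call was lost without EV replicate 1 (0.39) and without sgZNF507 replicate 1 (0.51) or 2 (0.48). In sgZNF507 against sgZNF146, 1 gene became 0 with Bonferroni adjustment, and leaving out libraries gave 0 to 1, with the call lost without sgZNF146 replicate 1 (0.52) or 2 (0.55). In sgZNF146 against EV the count was 0 throughout, and SLC35B2 ranged from -0.14 without EV replicate 1 to 0.05 without EV replicate 2. The other 9 genes gave 378 alternative values from -0.25 to 0.23, of which 0 were called. Among the pathway lists in sgZNF507 against EV, 1 called gene (SUMF1) became 0 with Bonferroni adjustment and 0 to 1 on leaving out libraries. In sgZNF507 against sgZNF146, 0 became 1 with no filter or with DESeq2 on 6 libraries.

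Over all genes, no filter gave 101 calls in sgZNF507 against EV, 19 in sgZNF146 against EV and 112 in sgZNF507 against sgZNF146, where the reported test gave 40, 0 and 38. Bonferroni adjustment gave 14 and 12 in the comparisons that involve sgZNF507. In sgZNF146 against EV, edgeR on 4 libraries gave 3 and DESeq2 on 4 libraries gave 3. Leaving out single libraries gave 12 to 44 in sgZNF507 against EV, 0 to 3 in sgZNF146 against EV and 13 to 37 in sgZNF507 against sgZNF146. The cause was not tested.

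Groups share replicate numbers, but nothing in the labels ties same-numbered libraries together. Their deviations correlated across genes by 0.138 to 0.176, over 2 pairs per comparison. In 8 of the 10 genes the libraries numbered 1 and 2 differed in the same direction in all 3 groups, beside 39.6% of all tested genes. With the replicate block, all-gene calls became 121 in sgZNF507 against EV, 33 in sgZNF146 against EV and 196 in sgZNF507 against sgZNF146. In the last, the pathway lists gave 2 calls (GPC6 and SUMF1). The block changed no call of the 10 genes.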

Other observations

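The letters found in SLC35B2 intron 1 were counted across protein-coding genes, SLC35B2 included. The counts are a description without a test, made after the letters had been chosen. Of the 29 protein-coding genes called in sgZNF507 against EV with a window of 500 bases on either side of the start, 25 (86.2%) held CACGTG and 20 (69.0%) held CACGTGAC, beside 19.9% and 5.57% of the 14656 tested protein-coding genes. The letters were not confined to genes that were higher, since 4 of the 6 called lower held CACGTGAC as well. For 2 or more CACGTGAC, as in SLC35B2, the count was 7 of the 23 called higher (30.4%), SLC35B2 included. It was 0 of the 6 called lower, beside 1.31% of tested protein-coding genes. Most genes with the letters were not called. Of 817 tested genes with CACGTGAC, 20 (2.45%) were called, beside 9 of 13839 without it (0.065%). The median log2 difference of the 817 was 0.00. SLC35B2 itself is counted among the 29, the 25, the 20 and the 817. The letters were taken from this called gene, so these shares are no independent evidence about called genes.

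Among the 93 tested pathway genes, 7 held CACGTGAC in that window. SUMF1 was the only 1 of them called. Among those not called, the log2 differences included B3GALT6 at 0.05, EXTL2 at 0.03, SGSH at 0.08, SLC26A11 at 0.09 and SLC26A2 at 0.01. Of the 5 genes most like SLC35B2 in pattern, ATG14, CLCN7 and NAGPA held CACGTGAC, while SLC38A7 and TRMT1 held only CACGTG. SLC38A7, NAGPA and CLCN7 are among the called genes counted above.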
